A study of Oryza sativa and Arabidopsis thaliana with 28 samples.

Results

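The genes described here are those whose RNA, labelled as messenger RNA (mRNA), was measured both on ribosomes and in total in wild-type rice seedlings. They were taken from a deposited rice table that lists 3695 genes, all called carriers of the modified base N4-acetylcytidine (ac4C) by the authors. The 3660 genes with a mean of at least 1 RPKM over the 4 wild-type libraries were kept, and 35 fell below. RPKM is a level in reads, corrected for the length of the gene and the size of the library. The 3 genes just above the minimum had means of 1.03, 1.09 and 1.11 RPKM, and the 3 just below had 0.955, 0.977 and 0.994 RPKM. Since the table holds ac4C genes alone, nothing here describes the rest of the rice transcriptome.

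In RNC-seq, an extract is spun through sucrose so that ribosomes pellet together with their nascent chains and the mRNAs they are reading. The mRNA in this pellet (RNC) is then sequenced beside the input mRNA of the same tissue. An mRNA that is on ribosomes in most of its copies is enriched in the pellet relative to the input, while an untranslated mRNA is left behind. The ratio of the levels is often called translation efficiency. It measures association with ribosomes and not the protein made.

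The tissue was whole seedlings of Oryza sativa. Wild type (WT) was the genotype Kitaake, with 2 RNC and 2 mRNA libraries. The other genotype, osnat10-1 (osnat10 below), is a mutant line whose name refers to a cytidine acetyltransferase of RNA, the enzyme class that makes ac4C. It also had 2 RNC and 2 mRNA libraries. No seedling treatment and no age were labelled for these 8 libraries. The growth protocol names only the cultivar Nipponbare, the RNC protocol is written for Arabidopsis seedlings, and the labels do not say whether osnat10-1 is 1 plant line or several. Whole seedlings mix leaf, stem and root, so a level is a mean over cell types, and fewer cells of a type cannot be told apart from less RNA per cell. The labels do not say whether the replicates came from separate plants, so p-values measure only the spread between these libraries. The gene mutated in osnat10 could not be checked, because no source used here pairs the rice identifiers with gene names. Marker genes of seedling tissues could not be checked for the same reason.

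The libraries agreed within each fraction far more closely than across fractions. Across genes, Spearman's rho was 0.943 between the 2 WT RNC libraries, 0.962 between the 2 WT mRNA libraries, and 0.749 to 0.800 between an RNC and an mRNA library. The median level was 25.0 RPKM in both WT RNC libraries, against 17.6 and 18.8 RPKM in the WT mRNA libraries. The table gives the WT columns of a fraction the same name, so its libraries are called first and later listed. The later RNC library listed 37 genes at 0, the first RNC library and both mRNA libraries none. Read depth is unknown for all of these libraries.

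In the deposited values, more of these ac4C genes passed as higher in the ribosome fraction than as lower. Tested with limma on log2(RPKM + 1), 1296 genes (35.4%) were higher in RNC than in mRNA and 378 (10.3%) were lower, at an adjusted p under 0.05. The other 1986 were not called. The median change was 0.44 on this log2 scale, with 10% of genes below -0.90 and 10% above 1.58, and a median standard error of 0.28. Of the called genes, 938 were over 2-fold higher and 134 over 4-fold higher, while 259 were over 2-fold lower and 57 over 4-fold lower. Both RNC libraries lay above both mRNA libraries for 2005 genes (54.8%) and below both for 793 (21.7%).

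The balance between higher and lower moved with the scale. Centring each library on its median lowered every WT change by 0.44, after which 732 genes were higher (20%) and 760 lower (20.8%). All 378 lower genes remained lower and called, and 732 of the 1296 higher genes remained called. The sign of a change near 0 thus rests on the scale chosen. Leaving out the later RNC library gave 217 lower genes, and leaving out the first or the later mRNA library gave 242 or 240.

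**Figure D1:**
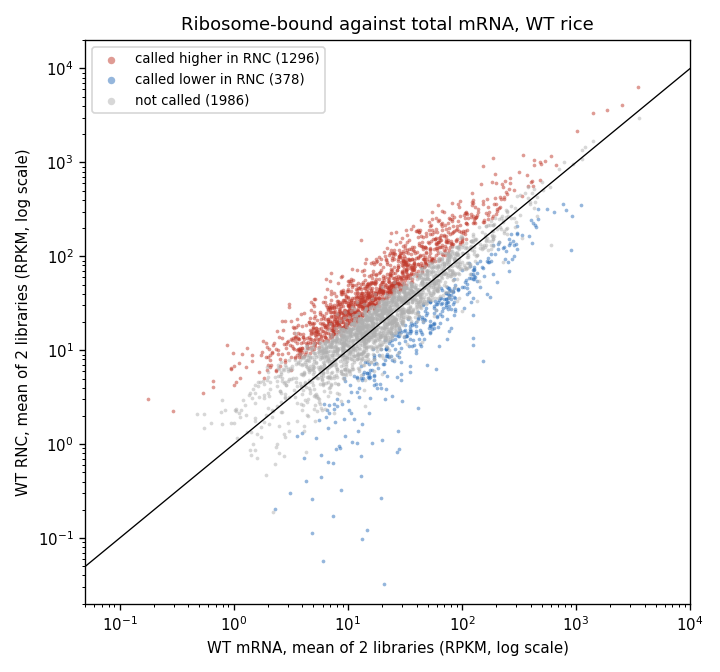
Mean level of each of the 3660 genes in the 2 WT RNC libraries (vertical, RPKM, log scale) against the 2 WT mRNA libraries (horizontal, RPKM, log scale). The line marks equal levels. The 1296 genes called higher lie above it at all levels, and the 378 called lower include a tail of genes with RNC means under 1 RPKM.

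The order of abundance was partly different on ribosomes. Of the 100 genes with the highest mean level in RNC, 61 were among the 100 with the highest mean level in mRNA.

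The genes with the largest rises were unnamed in the sources used here, so they are given by identifier, with positions in the build IRGSP-1.0. They and the falls below were taken by size among called genes with a mean of at least 5 RPKM and no overlap between fractions. The lack of overlap in these genes is thus part of the choice and not a result. Os04g0577300 (chromosome 4, 29110134 to 29112815, plus strand) had 128 and 169 RPKM in the RNC libraries, against 7.18 and 19.1 RPKM in the mRNA libraries. The lowest RNC value was well above the highest mRNA value, although the mRNA libraries differed between themselves. The change was 3.53 (SE 0.38, limma adjusted p = 0.000275), or 3.09 after centring. Os10g0581000 (chromosome 10, 23195820 to 23198427, minus strand) had 54.6 and 60.03 RPKM in RNC, against 4.38 and 8.44 RPKM in mRNA. Its RNC values were close together, and its change was 3.03 (SE 0.32, limma adjusted p = 0.000246), or 2.60 after centring.

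Of the falls, Os10g0346600 (chromosome 10, 10411380 to 10418438, minus strand) had 0.0390 and 0.0262 RPKM in RNC, against 19.3 and 22.4 RPKM in mRNA. This mRNA was thus well represented in the input and close to 0 in both ribosome libraries. The change was -4.40 (SE 0.31, limma adjusted p = 0.000135), or -4.84 after centring, a value that the added 1 RPKM makes smaller than the ratio of the levels. Os02g0306401 (chromosome 2, 11997254 to 12002625, minus strand) had 12.7 and 2.60 RPKM in RNC, against 98.5 and 205 RPKM in mRNA. Its libraries varied within both fractions, without overlap between them, and its change was -4.35 (SE 0.55, limma adjusted p = 0.000488), or -4.78 after centring. With 1 WT library left out, the change ran from 2.88 to 4.18 for Os04g0577300 and from 2.63 to 3.44 for Os10g0581000. It ran from -4.50 to -4.30 for Os10g0346600 and from -5.31 to -3.38 for Os02g0306401. Leaving out an osnat10 library cannot alter these changes. The 4 genes were picked for their size in the same libraries, so these ranges are a description.

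**Figure D2:**
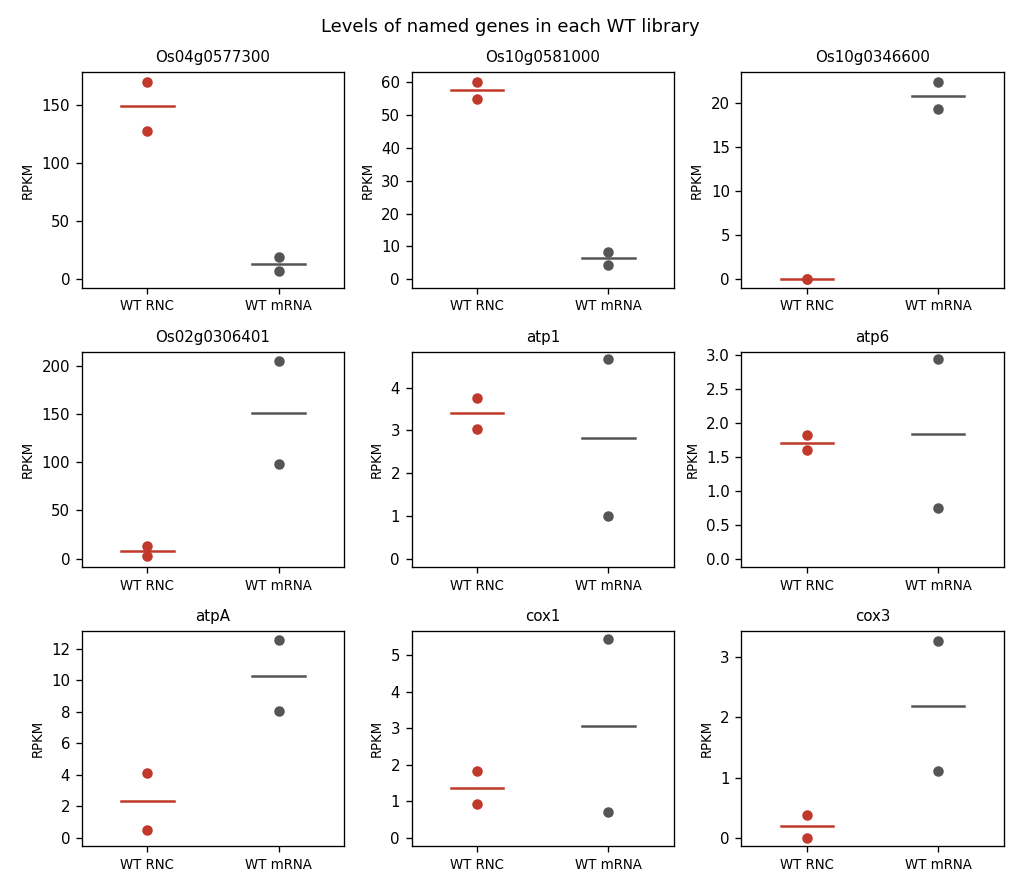
Level (RPKM, linear scale from 0, 1 axis per gene) of the 4 genes with the largest changes and of 5 organelle genes in the 2 WT RNC libraries and the 2 WT mRNA libraries. Points are libraries and short lines are means of 2. The first 4 genes were chosen to have no overlap between fractions. The fractions also do not overlap for atpA and cox3, while the mRNA points of atp1, atp6 and cox1 lie on both sides of their RNC points.

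Os10g0346600 was not alone in being nearly missing from the ribosome fraction. In 20 genes both RNC libraries were under 1 RPKM, and 9 of these had at least 5 RPKM in both mRNA libraries. Levels of the 9 ran from 0 to 0.988 RPKM in RNC, against 5.38 to 22.4 RPKM in mRNA. All 9 were called lower, with changes of -2.73 or beyond. The later RNC library listed 6 of the 9 at 0 and the first listed none at 0. These genes were picked by their WT values, so their calls in WT are a description. In osnat10, whose libraries did not enter that choice, the same 9 genes had 0 to 2.497 RPKM in RNC. Their levels in osnat10 mRNA were 3.26 to 30.2 RPKM. Of the 9, 8 were called lower in osnat10, against 504 of all 3660 members (13.8%). The osnat10 calls share their spread per gene with WT in 1 fit, so they are not independent of the choice.

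The table itself names 6 genes, all of organelles, and 5 of them are members, since atpH fell below the minimum. Chloroplasts and mitochondria keep a small genome and translate it on ribosomes of their own. The chloroplast gene atpA encodes the alpha subunit of the chloroplast ATP synthase. It had 4.13 and 0.528 RPKM in RNC, against 12.5 and 8.06 RPKM in mRNA. Both RNC values were below both mRNA values, with a change of -1.98 (SE 0.56, limma adjusted p = 0.0178). Without the later RNC library the change was -1.11 and not called (limma adjusted p = 0.1135). Without the first mRNA library it was -1.69 and also not called (limma adjusted p = 0.1227). The chloroplast gene atpH encodes the ring subunit of the same enzyme. It had 1.84 and 0 RPKM in RNC, against 1.42 and 0.562 RPKM in mRNA, and was not tested.

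None of the 4 mitochondrial genes was called in WT. The subunit genes of the mitochondrial ATP synthase, atp1 and atp6, were low in both fractions. Levels of atp1 were 3.76 and 3.03 RPKM in RNC, against 4.66 and 0.994 RPKM in mRNA. Those of atp6 were 1.59 and 1.81 RPKM in RNC, against 2.94 and 0.743 RPKM in mRNA. In both genes the RNC values lay between the mRNA values, and the change of 0.38 for atp1 (limma adjusted p = 0.700) and of 0.04 for atp6 (limma adjusted p = 0.947) turned to -0.05 and -0.39 after centring. The cytochrome c oxidase subunit genes cox1 and cox3 belong to the last complex of the respiratory chain. Levels of cox1 were 0.913 and 1.84 RPKM in RNC, against 5.43 and 0.702 RPKM in mRNA, with a change of -0.51 (limma adjusted p = 0.505). Levels of cox3 were 0.379 and 0 RPKM in RNC, against 3.28 and 1.12 RPKM in mRNA, with a change of -1.36 (SE 0.67, limma adjusted p = 0.121). The RNC values of cox3 lay below both mRNA values. With 1 of the osnat10 RNC libraries left out of the shared fit, cox3 was called (limma adjusted p = 0.01838 and 0.02109).

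Another 11 members carry identifiers outside the usual rice gene scheme, 10 starting with ENSRNA and 1 mitochondrial entry, EPlORYSAT000373608. The sources used here do not say that these 11 are mRNAs, so their changes are not read as mRNA on ribosomes. None was called in WT. A group of 4 swung widely between libraries of the same fraction. EPlORYSAT000373608 had 5.46 and 305 RPKM in RNC, against 564 and 110 RPKM in mRNA. ENSRNA049471778 (chromosome 1, 33506260 to 33506791) had 7.72 and 254 RPKM in RNC, against 990 and 205 RPKM in mRNA. The entries ENSRNA049471772 and ENSRNA049471882, which lie within the same stretch of chromosome 1, had the same order of the 4 libraries. In each of the 4 entries the first RNC library was the lowest and the first mRNA library the highest. The source of this swing was not tested.

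A further 4 ENSRNA entries share a span of 1811 bases, and copies of one sequence may share reads. ENSRNA049476430 (chromosome 9, 3626 to 5436) had 70.5 and 19.7 RPKM in RNC, against 55.2 and 33.5 RPKM in mRNA. ENSRNA049476447 and ENSRNA049476452, on the same chromosome, had the same pattern of a higher first RNC library, at 12.8 and 3.42 RPKM and at 15.5 and 2.07 RPKM in RNC, against 12.4 and 8.75 RPKM and 10.1 and 8.17 RPKM in mRNA. ENSRNA049471102 on chromosome 2 had 0.854 and 4.35 RPKM in RNC, against 4.89 and 3.18 RPKM in mRNA. The fractions overlapped in all 4.

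The change varied with how abundant an mRNA was. Genes were divided into quintiles of 732 genes by their mRNA level in osnat10, whose libraries the WT difference does not use. The mRNA libraries of the 2 genotypes ranked genes alike, with Spearman's rho of 0.921 to 0.969 across genes. The quintiles therefore also sort by the WT mRNA that is subtracted in the change, so a fall with level is partly built in. From the lowest to the highest quintile, the median change was 0.81, 0.66, 0.41, 0.25 and 0.09. Genes called higher numbered 289, 302, 261, 225 and 219, and genes called lower 25, 37, 55, 87 and 174. The lowest quintile held genes up to 7.59 RPKM and the highest began at 44.5 RPKM. Scarcer mRNAs thus had higher changes and abundant ones were more often called lower, which the subtraction of mRNA partly fixes in advance. Across genes, Spearman's rho between level and change was -0.264, a description over genes that share their libraries. After centring the medians of the lowest 2 quintiles were 0.38 and 0.22 and those of the higher ones were -0.02, -0.19 and -0.35, so the direction, but not the order, rests on the scale.

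The gap of 0.72 between the lowest and the highest quintile was larger than the disagreement between libraries. Taking 1 RNC and 1 mRNA library at a time, the 4 pairings gave 0.638 to 0.873. The pairings share libraries and each subtracts WT mRNA, so the built-in part of the gap is in all of them. The gap was 0.911 among genes with a mean of at least 5 RPKM, but a gene scarce in mRNA passes that minimum through a high RNC value, so the wider gap is partly built in by the filter.

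**Figure D3:**
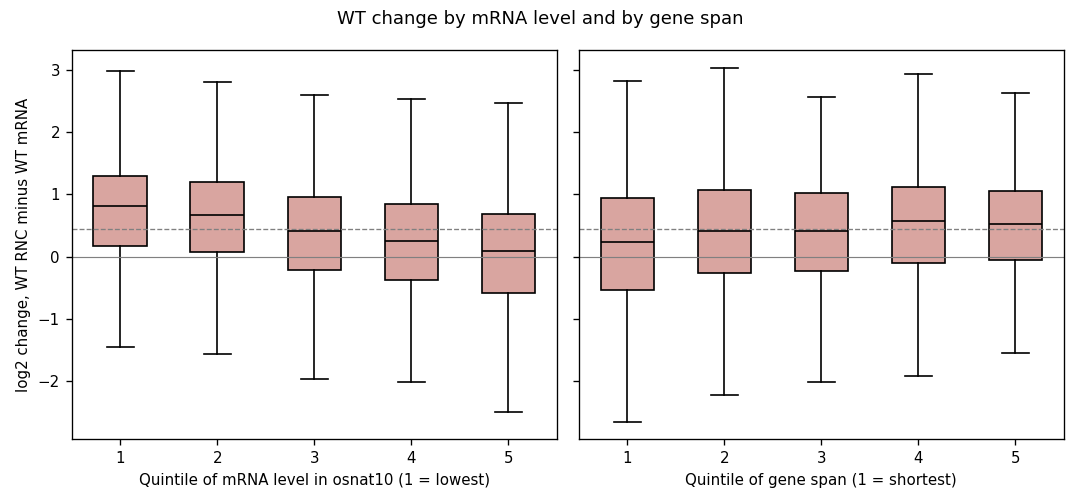
WT change (log2, RNC minus mRNA) by quintile of mRNA level in osnat10 (left) and by quintile of gene span (right), 732 genes in each. Boxes span the quartiles, the line in a box is the median, whiskers reach the farthest gene within 1.5 box lengths, and the dashed line is the median of all genes, 0.44. Medians step down from 0.81 to 0.09 with level and range from 0.24 to 0.58 with span.

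Gene span, the distance from the first to the last base with introns included, went with a smaller difference. From the shortest to the longest quintile the median change was 0.24, 0.41, 0.41, 0.58 and 0.53. Genes called lower numbered 114, 77, 76, 66 and 45. The gap of 0.29 between the longest and the shortest quintile ran from 0.105 to 0.495 over the 4 pairings of libraries. The 2 WT mRNA libraries themselves differed with span (Spearman's rho across genes -0.233 between their log2 difference, first minus later, and span). Short genes were also the more abundant ones (rho -0.370 between span and level), so the measures are not separate. Among the scarcest quintile of genes, the longest genes had a median change of 0.84 (221 genes) and the shortest 0.41 (87 genes). Among the most abundant quintile, the longest had -0.04 (31 genes) and the shortest 0.18 (310 genes). The longest genes were thus higher than the shortest at one end of abundance and lower at the other, a comparison with no test.

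Nuclear chromosome, strand and the number of transcripts went with little difference. Median changes by nuclear chromosome ran from 0.32 on chromosome 6 (298 genes) to 0.56 on chromosome 8 (264 genes). The 5 mitochondrial members had a median of -0.51, and atpA, the 1 chloroplast member, had -1.98. Genes on the plus strand had a median of 0.45 (1883 genes) and those on the minus strand 0.42 (1777 genes). Genes with 1 listed transcript had a median of 0.44 (2295 genes) and those with 4 or more 0.35 (110 genes). All transcripts of a gene carry the same values in the table, so isoforms could not be compared.

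The same difference was seen in osnat10, whose 4 libraries are separate from those of WT. The calls of both genotypes come from 1 fit with a shared spread per gene, however, so overlaps between their calls are not independent. Overlaps from separate fits are not given. In osnat10, 1259 genes (34.4%) were higher in RNC and 504 (13.8%) lower, with a median change of 0.33. Of the osnat10 genes called higher, 1040 (82.6%) were also called higher in WT, which is 80.2% of the WT list. Of those called lower in osnat10, 289 (57.3%) were lower in WT, or 76.5% of the WT list. No gene was called in opposite directions. Across genes the changes had a Spearman's rho of 0.858. The lower count was 304 without the first osnat10 mRNA library and 253 without the second, and the higher count was 708 without the first.

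The genes with the largest WT changes were nearly as far apart in osnat10. Os04g0577300 had 177 and 146 RPKM in osnat10 RNC, against 15.3 and 21.6 RPKM in osnat10 mRNA (change 3.07). Os10g0581000 had 49.6 and 43.4 RPKM, against 6.02 and 9.62 RPKM (change 2.46). Os10g0346600 had 0 and 0.230 RPKM in osnat10 RNC, against 23.3 and 22.7 RPKM in osnat10 mRNA (change -4.43). Os02g0306401 had 14.3 and 10.4 RPKM, against 261 and 266 RPKM (change -4.32). The chloroplast gene atpA had 2.80 and 1.04 RPKM, against 8.79 and 11.3 RPKM (change -1.98). The mitochondrial gene cox1, not called in WT, had 0 and 0.0374 RPKM in osnat10 RNC, against 3.12 and 5.08 RPKM in osnat10 mRNA, and was called lower there (change -2.30, limma adjusted p = 0.0117). The difference between the genotypes was not called for cox1 (limma adjusted p = 0.796). Of the 134 genes over 4-fold higher in WT, 129 (96.3%) were called higher in osnat10, against 34.4% of all 3660 genes. Of the 57 over 4-fold lower, 52 (91.2%) were called lower, against 13.8%. These genes were picked by their WT calls in the same fit. The medians by quintile of mRNA level were 0.63, 0.49, 0.36, 0.20 and 0.04 in osnat10, where the same mRNA libraries set both the quintiles and the change. By quintile of span they were 0.20, 0.36, 0.35, 0.45 and 0.30, from the shortest to the longest.

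The difference between the genotypes was tested directly as the interaction term, osnat10 minus WT. No gene was called, the smallest limma adjusted p being 0.718, and 220 genes (6.01%) had an unadjusted p under 0.05. The fit without a trend also called none. The count moved when a library was left out, to 94 lower and 9 higher without the second osnat10 RNC library, 1 lower without the first, and 2 higher without the first WT RNC library.

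**Figure D4:**
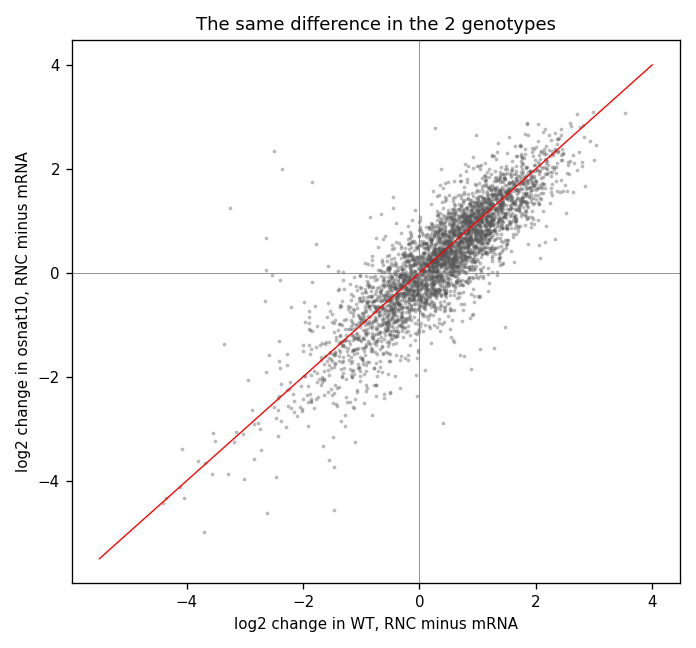
Change in osnat10 (vertical) against change in WT (horizontal), both log2, RNC minus mRNA, for the 3660 genes. The diagonal marks equal changes. Points follow the diagonal (Spearman's rho 0.858), and EPlORYSAT000373608, at 2.34 in osnat10 and -2.49 in WT, is among the points far above it.

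The series also holds ac4C-seq of rice, in which reduction with NaCNBH3 makes ac4C read as T. It was done on 15-day-old Nipponbare with 1 treated and 1 control library, so its sites come from another cultivar and have no replicates. Both libraries, the control included, carry a treatment time of 20 min in their labels. Sites were called at a minimum of 10 reads per library where the treated rate of T reads was the higher, by Fisher's exact test (two-sided) at an adjusted p under 0.05. That test sets 1 library against 1 other and does not test the treatment. Listed sites had at least 5 T reads in the treated library, while control counts of 0 occur. Being listed thus already favours a higher treated rate. The test called 203979 of 341377 sites, so called sites per gene rest partly on how the list was made. Of 1555 plus-strand members in the stretches covered, 1463 held a called site. The number of called sites followed the mRNA level (Spearman's rho across genes 0.608), while its rho with the WT change was 0.0103. The 92 members without a called site had a median change of 0.34, those with 1 to 15 sites 0.42, those with 16 to 70 sites 0.47 and those with over 70 sites 0.46.

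Because level moves with both measures, genes were also compared within quintiles of mRNA level, a split chosen after values had been seen. From the lowest to the highest quintile, genes with more called sites than the quintile's median had median changes of 0.96, 0.82, 0.69, 0.47 and 0.13, against 0.70, 0.50, 0.07, 0.16 and 0.13 for the others. The difference was widest in the middle quintile, where 77 of 157 genes with more sites were called higher, against 36 of 161 with fewer. In the same order of quintiles, the percentages called higher were 51.4, 48.3, 49.0, 41.0 and 29.8 with more sites. With fewer sites they were 36.5, 30.4, 22.4, 23.3 and 28.3. Over all 1555 plus-strand members in the stretches covered, 558 (35.9%) were called higher. The medians after centring were 0.53, 0.38, 0.26, 0.03 and -0.31 with more sites, against 0.26, 0.06, -0.37, -0.28 and -0.30 with fewer. In osnat10 the medians were 0.89, 0.64, 0.69, 0.47 and 0.09 with more sites, against 0.39, 0.29, -0.002, 0.11 and 0.13 with fewer. The same site counts and quintiles serve both genotypes, so the like split in osnat10 is not a separate test. Genes with more sites had higher median WT mRNA in each quintile (19.2 against 16.0 RPKM in the middle one). They had shorter median spans in all but the highest quintile (3506 against 4137 bases in the middle one). The ac4C-seq reads at called sites were deeper in the genes with more sites, with medians of 505, 594, 716, 1021 and 1840 treated reads, against 307, 338, 400, 484 and 1023. Depth decides how many sites can be called. The part of depth, mRNA level and span in the split was not tested.

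**Figure D5:**
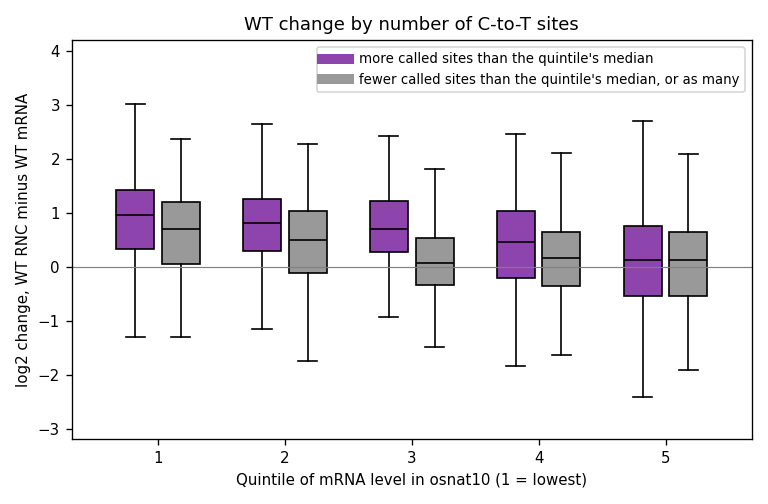
WT change (log2, RNC minus mRNA) of 1555 plus-strand genes by quintile of mRNA level in osnat10, for genes with more called C-to-T sites than the median of the quintile (purple) and the others (grey). Boxes span the quartiles, lines are medians and whiskers reach the farthest gene within 1.5 box lengths. The medians differ most in the middle quintile, at 0.69 and 0.07, and hardly in the highest, at 0.13 and 0.13.

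Genes with a called site at least 5 points above the control rate had a median change close to that of the others. The 168 members with a called site at least 5 points above the control rate had a median change of 0.50, against 0.44 for the other 1387. Called higher were 59 (35.1%), against 499 (36.0%), and called lower 10 (5.95%), against 139 (10.0%). The 168 were scarcer, with a median WT mRNA of 13.2 against 19.3 RPKM, and longer, with a median span of 4546 against 3219 bases. Their called sites had a median of 363.5 treated reads, against 626. The part of level, span and depth in this comparison was not tested. The member with the largest rate difference at 50 or more reads was Os07g0529600 (chromosome 7, 20724581 to 20726069, plus strand), named here for that site. Within its span of 1489 bases, 447 sites were called at that read minimum. At position 20724692, 4908 of 5188 treated reads were T, or 94.6%, against 0 of 3258 control reads, which allows up to 0.0921% and covers counting error only. This gene had 35.9 and 26.5 RPKM in WT RNC, against 29.1 and 22.5 RPKM in WT mRNA. The fractions overlapped, and the change of 0.26 (SE 0.29, limma adjusted p = 0.472) was not called and turned to -0.17 after centring. In osnat10 it had 5.62 and 7.08 RPKM in RNC, against 6.73 and 9.61 RPKM in mRNA, and the change was not called there either (-0.31, limma adjusted p = 0.400).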

How the data were processed

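Reads were handled by the authors with STAR 2.5.3a and SAMtools on IRGSP-1.0, per the submitters' processing notes; the read counter and the length divided by are not given in the sources used here. The authors deposited RPKM values per transcript, 5602 rows for 3695 genes, and a translation efficiency equal to the natural log (ln) of mean RNC over mean mRNA RPKM in 100% of rows (tolerance 1e-04). The ac4C-seq table was deposited as read counts of T and a count headed C, taken as all reads at a position, since a comparison of 2 proportions on that reading returns the authors' p-value at 100% of sites (tolerance 0.001, relative).

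One row per gene was used. RPKM plus 1 on the log2 scale was fitted with limma 3.58.1 (R 4.3.3, eBayes with trend) over the 8 rice RNC-seq libraries, with no block and Benjamini-Hochberg adjustment over the 3660 genes. Scripts were tested on simulated data. Sites were assigned to plus-strand genes, as they carry no strand. The number of table columns with no sample was 0.

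None of the 3695 identifiers matched the RefSeq names table (ASM3414082v1), so gene lists could not be applied, no gene sequence is shown, and at most 2 risen and 2 fallen identifiers are named, by the largest called change at a mean of at least 5 RPKM without overlap between fractions; Os07g0529600 and the entries starting with ENSRNA or EPl were chosen after their values were seen. Members, lists and groups were chosen with earlier results of these data known. Alternatives covered the pseudocount, the filter, centring, the libraries fitted, the trend and the read minimum of sites. Depth is unknown and 2 libraries per group limit the precision.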

Additional observations from a re-analysis of the deposited data

How the results depend on the processing

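No gene called in WT changed sign with a pseudocount of 0.1 RPKM or with any 1 WT library left out. Centring changed the sign of 2 of the 1296 higher genes. The filter, the trend, fitting the WT libraries alone and leaving out an osnat10 library cannot alter a WT change. They bear only on which genes are tested and on the p-values, so they do not test the sign. Centring gave 732 higher and 760 lower genes in WT and 802 higher and 854 lower in osnat10. The gap between the lowest and highest quintiles of mRNA level was 0.911 at a mean of at least 5 RPKM. With 1 library left out, where the lone library is assumed to vary like the other groups, WT had 920 to 1518 higher and 217 to 509 lower genes, osnat10 708 to 1264 and 253 to 687, and the interaction 0 to 9 and 0 to 94; the cause was not tested. That gap then ran from 0.630 to 0.846, the span gap from 0.139 to 0.469, and the rho of sites from -0.03 to 0.05. No paired analysis was possible because the WT columns carry no replicate numbers. For osnat10 alone, a fit with the replicate block called 1158 higher and 480 lower genes; its numbers were not taken as pairs (correlation of deviations 0.040). Dividing reads by span was not run, since reads could not be recovered from the values.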

Other observations

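A pair of formal properties of the identifiers, looked at after values had been seen, went with a larger share of genes called lower in RNC than in mRNA in WT. Of the 78 genes whose identifier does not end in 00, 17 (21.8%) were called lower, against 360 (10.1%) of the 3566 that do. Of the 185 genes whose transcript identifier ends in -00, 40 (21.6%) were called lower, against 337 (9.74%) of 3459 others, with a median change of 0.06 against 0.45. Among the 57 genes over 4-fold lower, 9 had the first property (15.8%, against 2.13% of all members) and 16 the second (28.1%, against 5.05%). Among the 134 genes over 4-fold higher, 4 had the first (2.99%) and 10 the second (7.46%). Os02g0306401 has both properties and Os10g0346600 the second. In osnat10, 19 of the 78 (24.4%) and 54 of the 185 (29.2%) were called lower, against 504 of all 3660 members (13.8%). The genes with a -00 transcript were shorter, with a median span of 1687 bases against 3402 for the others, and what these identifiers stand for was not tested.

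In all, 8 pairs of members overlap in the genome, all on opposite strands, and 4 pairs had changes of opposite sign. Whether the authors counted by strand is not given in the sources used here, so reads of such partners cannot be told apart. The genes given by identifier with their values are in none of these pairs.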
